A study of Cunninghamia lanceolata with 2 samples.

Results

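The 10 abundant ACC oxidase genes of Chinese fir (Cunninghamia lanceolata) roots are described here at low and at sufficient phosphorus. Of 32731 assembled genes, 18 carry the product name aminocyclopropanecarboxylate oxidase, and the 10 most abundant were chosen by their mean measured level over the 2 libraries, so their levels are a description. The level is given in RPKM, which divides the reads of a gene by its length and by the reads of its library. The LP library came from seedling roots kept at a phosphorus concentration below 0.01 mM, which is what distilled water supplied, and the CK library from roots kept at 1 mM. Both treatments lasted 4 months and followed a month of growth in dilute Hoagland solution in both groups. Each group has 1 library, and how many plants went into it is not given in the sources used here, so every difference below is between 2 libraries and has no replicate check and no test. Intervals are 95% intervals that cover counting error only.

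ACC oxidase catalyses the last step of ethylene synthesis in plants. S-adenosylmethionine synthetase supplies the precursor, ACC synthase turns it into 1-aminocyclopropane-1-carboxylate (ACC), and ACC oxidase, an iron enzyme that uses ascorbate, splits ACC into ethylene, carbon dioxide and cyanide. It belongs to a large superfamily of iron-dependent dioxygenases, in which gibberellin oxidases and several flavonoid enzymes are relatives, so a product name given by similarity can span enzymes with different substrates. Ethylene is known for its effects on root hairs and root elongation, and in Arabidopsis for a part in the response to phosphate shortage.

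The libraries hold 48502899 estimated reads in LP roots and 17848911 in CK. The tissue is labelled root, although the protocol text also names an adipose type. A mean level of 1 RPKM or more was reached by 30843 genes. Of these, 2676 (8.68%) lay 2-fold or more higher in LP and 4996 (16.2%) 2-fold or more lower, judged on log2((LP RPKM + 1)/(CK RPKM + 1)). The split was 3329 higher and 4018 lower under median-of-ratios scaling, which raises log2 ratios by up to about 0.22. It was 1996 higher and 2324 lower on counts scaled by library total alone. With a pseudocount of 5 RPKM it turned round, to 1530 higher and 1008 lower. The median log2 ratio of all these genes was -0.16. Of 49 genes for photosystem and light-harvesting proteins and the Rubisco small chain, which mark green tissue, 47 passed the 1 RPKM limit. Of these, 5 lay at least 2-fold higher in LP and 10 lower, with a median log2 ratio of 0.11, and 2 of the 49 had 0 reads in CK roots. The summed level of the list was 460.2 RPKM in LP roots against 845.9 RPKM in CK roots. Without PsbA, its most abundant gene, it was 411.1 RPKM in LP roots against 412.2 RPKM in CK roots. Without PsbA, 5 genes still lay higher and 9 lower. The lower ones, like PsbA, are all named as photosystem proteins: PsbB, PsbC, PsbD, PsbE, PsbL, PsbZ and a photosystem I core protein. The higher ones include Rubisco small chain and light-harvesting genes. Of the Rubisco small chain genes, comp20871_c0 was 23.8-fold higher and comp5107_c0 45.1-fold higher in LP, the second on 3 CK reads. The others were not higher: comp6012_c0 had a ratio of 0.793 (0.707 to 0.889) and comp17701_c0 one of 1.00 (0.815 to 1.24). Whether a different share of green tissue bears on the values below was not tested. In whole roots, fewer cells of a type and less RNA per cell cannot be told apart.

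Gene ontology (GO) terms split the 10 genes, and the term that goes with the product name stood on only some of them. The ACC oxidase activity term stood on 5, each of which also carried terms for ascorbate binding, ethylene synthesis and ripening. A gibberellin 2-beta-dioxygenase term, the activity that inactivates gibberellins, stood on 2. Neither term stood on 3, of which 1 had no GO term at all. The assembled genes were 1160 to 1617 bases long, with a median of 1331.5, against 610.0 for all genes in the table. All 10 had a mean of at least 39.6 RPKM and so passed the limit of 1 RPKM.

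In LP, 2 of the 10 genes stood at least 2-fold higher (8.68% of all genes) and 3 were at least 2-fold lower (16.2% of all genes), while 5 stayed within 1.5-fold. All 5 genes past 2-fold were also past 4-fold (6.82% of all genes in either direction), and 4 were past 16-fold (0.969%). Among the 3885 genes at least as abundant as the lowest of the 10, 5.66% were past 4-fold in either direction and 1.85% past 16-fold. The members were proposed with these results known, so the counts describe the genes and support nothing further. Their median log2 ratio was 0.02, which stands for no single gene, since the ratios ran from -4.54 to 8.09. In the authors' deposited table the same 5 genes carry a yes call, and 3416 of all 32731 genes (10.4%) do.

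**Figure D1:**
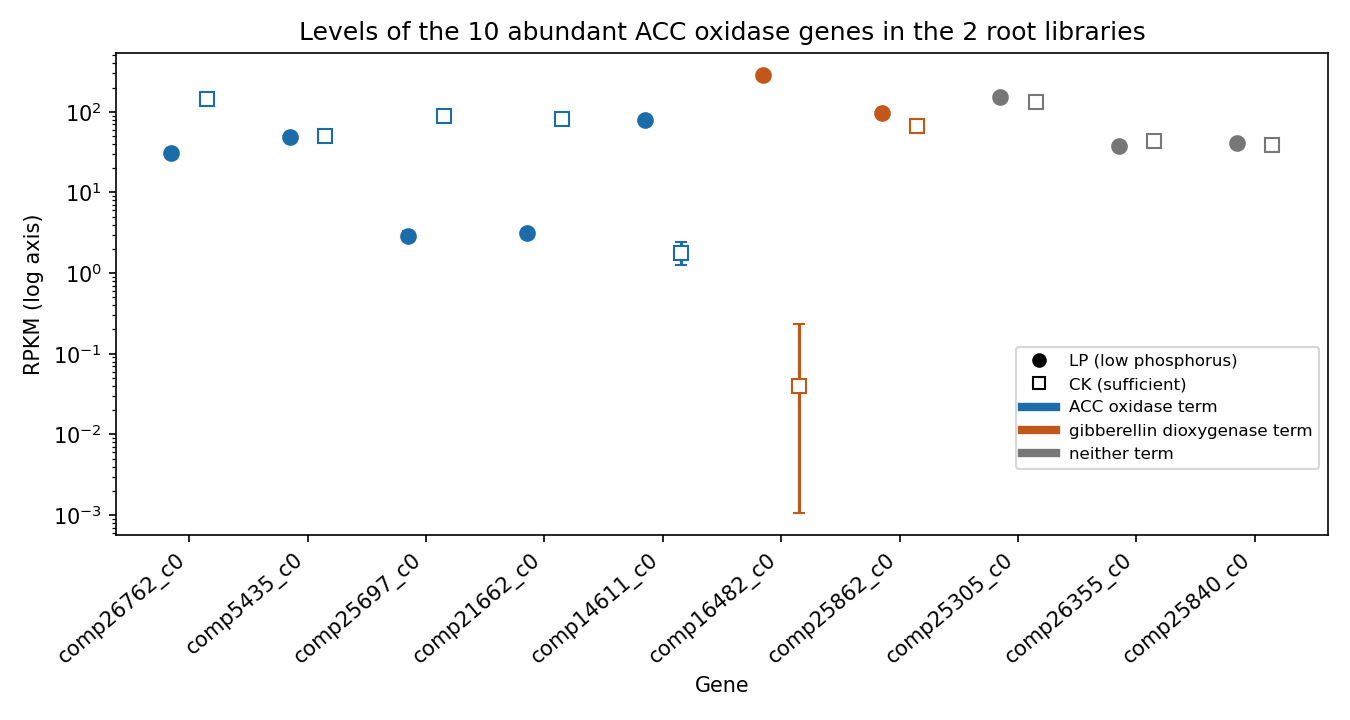
Level of each of the 10 genes in RPKM on a log axis, in LP (filled circles) and CK (open squares), coloured by GO term; bars are 95% counting intervals, often smaller than the symbol. Genes with the ACC oxidase term lie on both sides, with comp25697_c0 and comp21662_c0 near 3 RPKM in LP roots and comp14611_c0 near 2 RPKM in CK roots, while comp16482_c0 has 283 RPKM in LP roots and 0.04 RPKM in CK roots.

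Among the 5 genes with the ACC oxidase term, 3 were at least 4-fold lower in LP, 1 was far higher and 1 was level. The gene comp26762_c0 had 31.3 RPKM in LP roots (1432 reads) and 146 RPKM in CK roots (2821 reads), the highest level of any of the 10 genes in CK. It was 4.67-fold lower in LP (interval 4.38 to 4.98), and 5.35-fold lower by reads per library total, since RPKM of a gene with several transcripts depends on how reads were divided among them. The table lists 2 transcripts for it. Its log2 ratio was -2.19, and -1.97 under median-of-ratios scaling, just short of 4-fold.

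The genes comp25697_c0 and comp21662_c0 stood close together in both libraries. The first had 2.89 RPKM in LP roots (186 reads) and 89.5 RPKM in CK roots (2110 reads), 31.0-fold lower in LP (26.6 to 36.2). The second had 3.11 RPKM in LP roots (212 reads) and 82.1 RPKM in CK roots (2048 reads), 26.4-fold lower (22.9 to 30.5). Their counting intervals overlapped in LP, and in CK they met only at their rounded ends of 85.7 RPKM. Their order was not tested in either library. Of all 30843 genes tested, 13 had a lower log2 ratio than comp25697_c0 and 15 a lower one than comp21662_c0.

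Opposite to these, comp14611_c0 had 79.1 RPKM in LP roots (4594 reads) and 1.79 RPKM in CK roots (38 reads). It was 44.2-fold higher in LP (32.1 to 62.5), and 144 genes of the table had a higher log2 ratio. The gene comp5435_c0 had 49.2 RPKM in LP roots (3455 reads) and 50.8 RPKM in CK roots (1306 reads), a ratio of 0.969 whose interval of 0.909 to 1.03 includes equality. It was the only one of the 5 that stayed within 2-fold.

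By protein match, comp26762_c0, comp25697_c0, comp21662_c0 and comp14611_c0 all carry the same protein database entry in the table, whereas comp5435_c0 carries another. So the 4 abundant genes assigned to this known protein include the 3 lower ones and the higher one. The entry is not limited to these 4, since 6 genes of the product name and 7 of all assembled genes carry it. The less abundant comp5500_c0 and comp21699_c0 carry it too, with ratios of 0.892 (0.765 to 1.04) and 1.08 (0.836 to 1.40). Related assembled genes can share reads, and the values of each such gene are uncertain to the extent that the authors' counting divided shared reads among them.

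Summed over the 5 genes, the level was 165.6 RPKM in LP roots against 370.4 RPKM in CK roots, a ratio of 0.447 (0.434 to 0.461). The make-up of that sum also differed between the libraries. In LP comp14611_c0 made up 47.8% of the sum, against 0.483% in CK. The pair comp25697_c0 and comp21662_c0 made up 1.74% and 1.88% in LP, against 24.2% and 22.2% in CK. The share of comp26762_c0 was 18.9% in LP and 39.5% in CK. For comp5435_c0 the share was 29.7% in LP and 13.7% in CK, at a level that hardly differed.

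Both genes with a gibberellin 2-beta-dioxygenase term were higher in LP, 1 of them past 2-fold. The gene comp16482_c0 had 283 RPKM in LP roots, on 18513 reads, and 0.04 RPKM in CK roots, on 1 read. By reads per library total it was 6813-fold higher in LP, with an interval of 1223 to 269103 that shows how little 1 read fixes the size of the fold. Its CK level has an interval of 0.00106 to 0.233 RPKM. It was the most abundant of the 10 genes in LP and the least abundant in CK, and by level it ranked 400th of all genes in LP and 31264th in CK. Across all genes, 23 had at least 100 RPKM in LP roots and at most 1 read in CK roots, and 4 of these have a product name. Its GO terms also include the response to red light.

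The other one, comp25862_c0, had 96.9 RPKM in LP roots (4766 reads) and 67.1 RPKM in CK roots (1382 reads). Its ratio was 1.45 (1.36 to 1.54) on RPKM and 1.27 by reads per library total, over 11 listed transcripts. Its GO terms include gibberellin metabolism and the response to salt stress. The 2 genes summed to 379.7 RPKM in LP roots against 67.11 RPKM in CK roots, a ratio of 5.66 (5.36 to 5.97), and comp16482_c0 alone held 283 RPKM of the LP sum.

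The 3 genes with neither term stayed within 1.5-fold. Of these, comp25305_c0, the most abundant of all 10 by mean level, had 154 RPKM in LP roots (9002 reads) and 131 RPKM in CK roots (2833 reads), a ratio of 1.17 (1.13 to 1.23). No GO term describes it. The gene comp26355_c0, which carries a term for organ senescence, had 38.2 RPKM in LP roots (2235 reads) and 42.9 RPKM in CK roots (986 reads), a ratio of 0.891 (0.826 to 0.961). The gene comp25840_c0, with terms for methyltransferase activity and alkaloid metabolism, had 40.8 RPKM in LP roots (1915 reads) and 38.3 RPKM in CK roots (695 reads), a ratio of 1.06 (0.976 to 1.16). The intervals are narrow because the genes are deeply read. Their log2 ratios of 0.23, -0.16 and 0.09 became 0.45, 0.05 and 0.30 under median-of-ratios scaling.

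Together the 10 genes summed to 778.7 RPKM in LP roots and 650.0 RPKM in CK roots, a ratio of 1.20 (1.18 to 1.22), against 1.07 for the sum over all genes. The near-equal sums hide a different make-up. Genes with the ACC oxidase term gave 21.3% of the sum in LP and 57.0% in CK. Those with the gibberellin dioxygenase term gave 48.8% in LP and 10.3% in CK, and those with neither term 30% in LP and 32.7% in CK. Without the genes that carry the gibberellin term the ratio of sums was 0.684. The direction of the sum therefore depends on whether the genes with the gibberellin term are counted. Of these, comp16482_c0 alone gave 36.3% of the sum in LP and 0.00615% in CK.

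**Figure D2:**
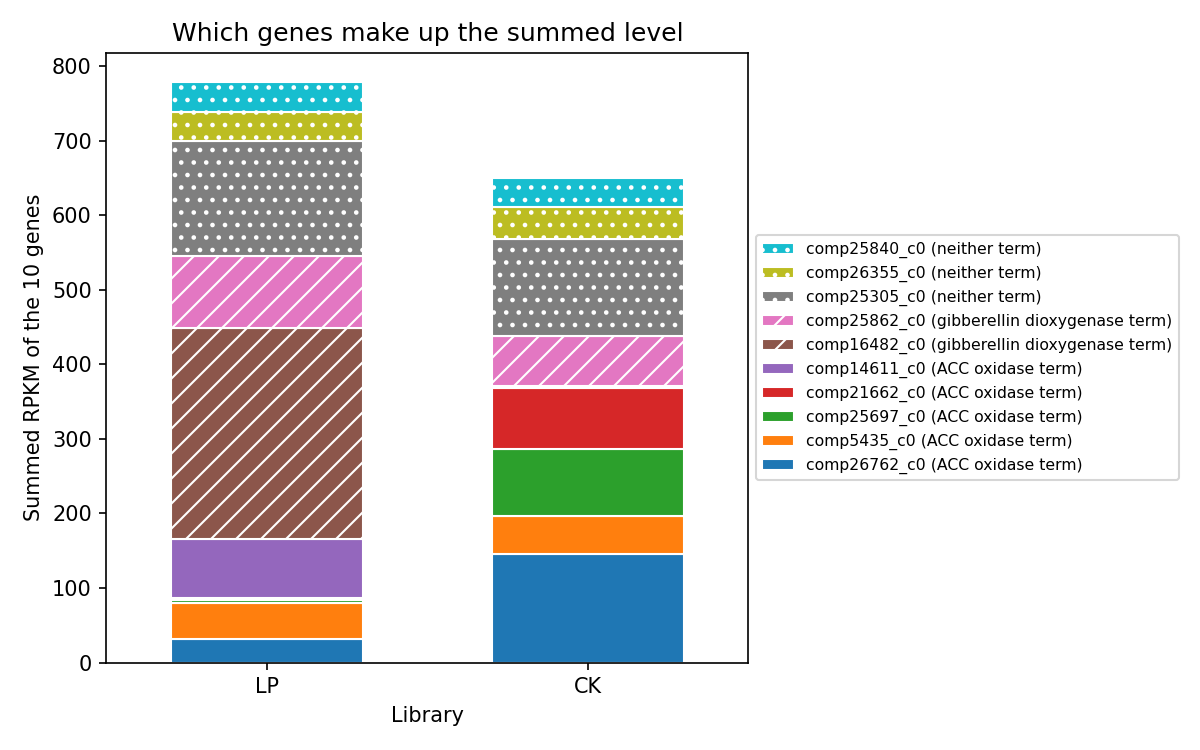
Summed RPKM of the 10 genes in LP and CK, with each gene as a segment; plain segments carry the ACC oxidase term, hatched ones a gibberellin dioxygenase term and dotted ones neither. The bars reach 778.7 RPKM in LP roots and 650.0 RPKM in CK roots, and the plain segments make up 21.3% of the first and 57.0% of the second.

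The order of the genes by level changed between the libraries. In LP it ran from comp16482_c0 through comp25305_c0, comp25862_c0, comp14611_c0, comp5435_c0, comp25840_c0, comp26355_c0 and comp26762_c0 to comp21662_c0 and comp25697_c0. There, counting intervals of neighbours overlapped for comp25840_c0 with comp26355_c0 and for comp21662_c0 with comp25697_c0, and for no other neighbours. In CK the order ran from comp26762_c0 through comp25305_c0, comp25697_c0, comp21662_c0, comp25862_c0, comp5435_c0, comp26355_c0 and comp25840_c0 to comp14611_c0 and comp16482_c0. There, the intervals of comp26355_c0 and comp25840_c0 overlapped, while those of comp25697_c0 and comp21662_c0 met only at their rounded ends. The leading gene of each library stood in the last 3 places of the other. The gene comp25305_c0 held the second place in both.

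**Figure D3:**
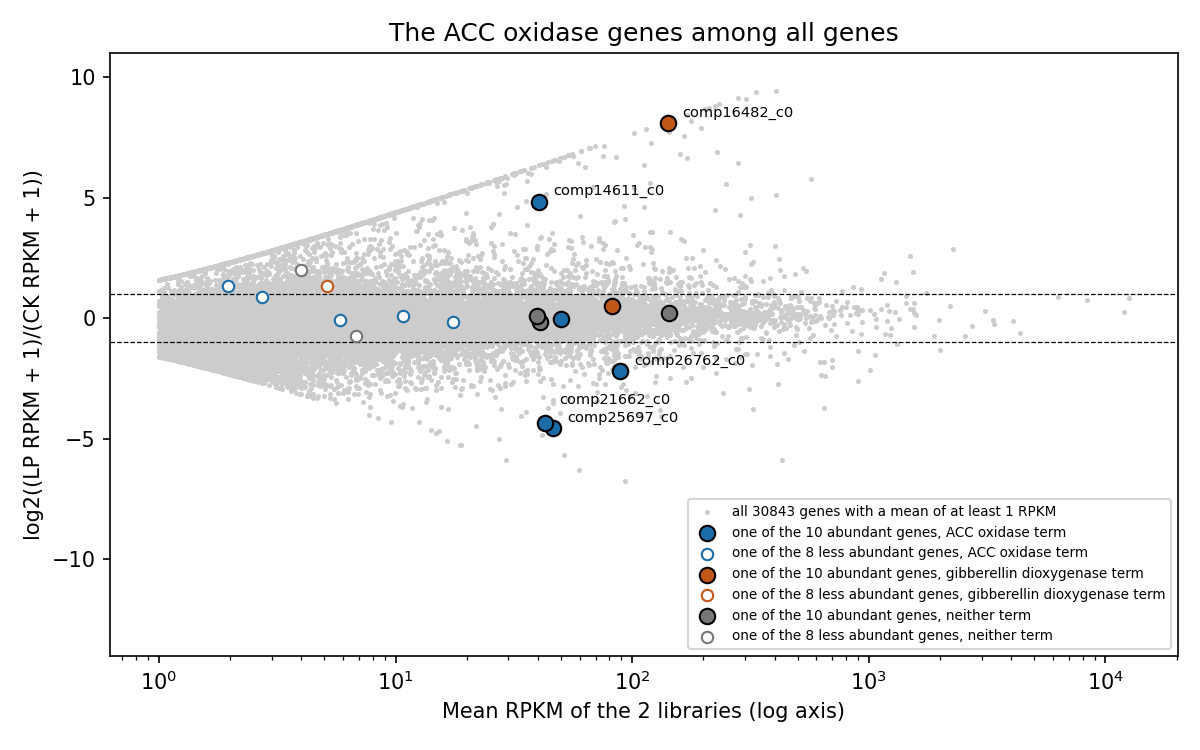
Log2 ratio of LP over CK (pseudocount of 1 RPKM) against mean RPKM on a log axis, for all 30843 genes tested (grey), the 10 abundant genes (filled) and the 8 less abundant genes of the same product name (open); dashed lines mark 2-fold. The 5 labelled genes lie between -4.54 and -2.19 or at 4.84 and 8.09, while the other 5 lie near 0.

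The limit of 10 genes fell in a gap of level. The last gene inside it, comp25840_c0, had a mean of 39.6 RPKM, and the first outside it, comp5500_c0, a mean of 17.5 RPKM. This gene carries the ACC oxidase term and had 16.5 RPKM in LP roots and 18.5 RPKM in CK roots, a ratio of 0.892 (0.765 to 1.04). The 8 genes outside had means down to 1.96 RPKM and a median length of 518 bases, so that several may be fragments. All 8 passed the 1 RPKM limit. At the 2-fold limit, 3 were higher in LP (8.68% of all genes) and 0 lower (16.2% of all genes). Their summed level, over all 8, was 59.94 RPKM in LP roots against 49.27 RPKM in CK roots. The 3 higher ones were read 13, 22 and 3 times in CK roots. Among them comp12107_c0, with the ACC oxidase term, had 3.24 RPKM in LP roots and 0.68 RPKM in CK roots, and comp36717_c0, with a gibberellin term, 7.75 RPKM in LP roots and 2.50 RPKM in CK roots. The third, comp55211_c0, had 6.98 RPKM in LP roots and 1.01 RPKM in CK roots.

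The ACC oxidase term also stands on 3 genes with other or no product names. The gene comp8151_c0, named as flavonol synthase, another dioxygenase, had 39.8 RPKM in LP roots (2288 reads) and 2.52 RPKM in CK roots (53 reads), 15.8-fold higher in LP (12 to 21.2). An unnamed gene, comp17176_c0, had 32.1 RPKM in LP roots and 26.2 RPKM in CK roots, and a short fragment named as flavonol synthase, comp164051_c0, was read 5 times in LP roots and 3 times in CK roots. Over all 13 genes with the term the sum was 278.5 RPKM in LP roots and 437.1 RPKM in CK roots, a ratio of 0.637 (0.620 to 0.655).

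The steps before ACC oxidase differed far less between the libraries than its most changed genes. The single S-adenosylmethionine synthetase gene, comp26680_c0, had 1673 RPKM in LP roots and 1435 RPKM in CK roots, a ratio of 1.17 (1.15 to 1.18). The single gene named as ACC synthase, comp9218_c0, had 15 RPKM in LP roots (1381 reads) and 12.7 RPKM in CK roots (427 reads), a ratio of 1.18 (1.06 to 1.32). The ACC deaminase gene comp24177_c0, whose product removes ACC by another route, had 15.1 RPKM in LP roots and 16.6 RPKM in CK roots, a ratio of 0.911 (0.820 to 1.01).

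The Yang cycle returns the methylthio group left over by ACC synthase to methionine. Of its 5 genes, 1 was at least 2-fold higher in LP (8.68% of all genes), 0 lower (16.2% of all genes) and 4 within 2-fold. Their median log2 ratio was -0.01, against -0.16 for all genes. The higher one, the 5-methylthioribose kinase gene comp26720_c0, had 213 RPKM in LP roots and 54.9 RPKM in CK roots (3.88-fold, 3.69 to 4.09). The most abundant, comp14018_c0, a dioxygenase of the cycle, had 378 RPKM in LP roots and 418 RPKM in CK roots, a ratio of 0.905 (0.882 to 0.930), the lowest of the 5.

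Downstream of ethylene, the 61 genes named as EREBP-like factors, the family of ethylene response factors and their relatives, lay on both sides. In LP, 5 were at least 2-fold higher (8.20%, against 8.68% of all genes), 19 lower (31.1%, against 16.2%) and 37 within 2-fold. The median log2 ratio was -0.32, against -0.16 for all genes. By log2 ratio with the pseudocount, the highest was comp35429_c0, which had 52.8 RPKM in LP roots and 1.67 RPKM in CK roots (31.6-fold higher, 22.4 to 46.3). On that scale the lowest was comp25515_c0, which had 1.40 RPKM in LP roots and 29.8 RPKM in CK roots (21.3-fold lower, 16 to 28.9). The most abundant, comp15956_c0, had 175 RPKM in LP roots and 177 RPKM in CK roots. No product name matched ethylene receptors, the ethylene signalling proteins CTR1, EIN2 or EIN3, cyanoalanine synthase or gibberellin receptors. By GO term, ethylene-mediated signalling stood on 125 genes, of which 124 passed the 1 RPKM limit. In LP, 13 of them were at least 2-fold higher (10.5%, against 8.68% of all genes) and 33 lower (26.6%, against 16.2%). A term for the response to ethylene stood on 22 genes, with 3 higher (13.6%) and 3 lower (13.6%). These lists may share genes with the EREBP-like list. An ethylene binding term stood on 2 unnamed genes. Of these, comp15155_c0 had 1.98 RPKM in LP roots and 6.04 RPKM in CK roots (3.05-fold lower, 2.60 to 3.58), and comp12689_c0 had 18.8 RPKM in LP roots and 21.8 RPKM in CK roots.

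**Figure D4:**
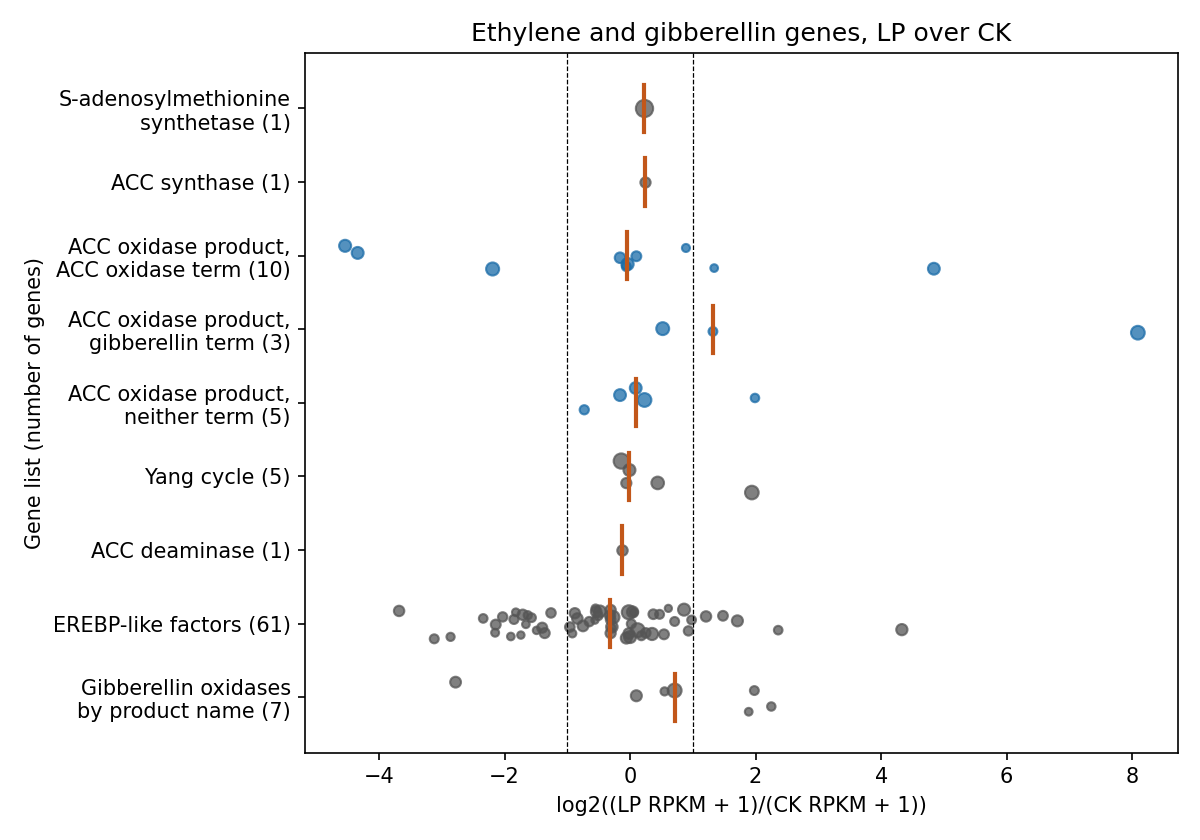
Log2 ratio of LP over CK (pseudocount of 1 RPKM) for each gene of the ethylene and gibberellin lists; point size grows with mean RPKM, orange ticks mark list medians and dashed lines 2-fold. The genes with the ACC oxidase product name (blue) run from -4.54 to 8.09, while S-adenosylmethionine synthetase and ACC synthase stand at 0.22 and 0.23.

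The genes nearest in level over the 2 libraries were sought among the 4605 product-named genes whose mean reached 10 RPKM, by distance on the log2(RPKM + 1) scale. With only 2 libraries this likeness means a similar level in each and no more. Nearest to comp16482_c0 was comp25863_c0, an inorganic phosphate transporter of the PHS family with 342 RPKM in LP roots and 0 reads in CK roots, at a distance of 0.28. The next were a phospholipase A2 gene, comp23451_c0, at 1.03 and comp23701_c0, named as acyl carrier protein, at 1.32. Nearest to comp25697_c0 was its fellow ACC oxidase gene comp21662_c0, at 0.15. It was followed by the flavonol synthase gene comp31858_c0 at 0.45 (2.98 RPKM in LP roots, 65 RPKM in CK roots) and the nitrate transporter gene comp26314_c0 at 0.47 (1.85 RPKM in LP roots, 81.4 RPKM in CK roots). The 3 nearest to comp25305_c0 lay within 0.06, a ubiquitin-conjugating enzyme, a high mobility group protein and a subunit of the vacuolar proton pump.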

How the data were processed

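Per the labels' protocols, RNA from roots was sequenced as paired-end Illumina libraries, 1 each for LP and CK. The protocol text names both poly(A)+ and poly(A)- fractions, so which fraction was sequenced is not certain. No assembler, aligner or counter is named in those sources. The authors deposited, per assembled gene, estimated counts (not normalized, often not whole), RPKM values scaled to gene length and library depth, gene lengths, and their own log2 fold change, p-value, FDR and yes or no call. The deposited p-values are rounded and compare 2 libraries, not phosphorus levels, and are not printed.

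From these, log2((LP + 1)/(CK + 1)) on RPKM was computed wherever the mean reached 1 RPKM, in Python 3.11.15 with scipy 1.17.1, and checked on simulated data. A fold is the quotient of the RPKM values; below 1 RPKM in either library, reads divided by library depth were used instead. Fold intervals are exact (Clopper-Pearson) on reads rounded to whole numbers, and intervals of levels are exact Poisson. Intervals of sums are approximate. Reads are not independent molecules, so intervals cover counting error only.

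The members and lists were chosen with earlier results of these data known. GO-term lists and the green tissue list were added after values were seen, and were not tested. Named genes are the members, each list's highest, lowest and most abundant gene (mean 2 RPKM or more), and the 3 nearest genes for 3 members. The genes with the ACC oxidase term outside the product name, the genes past 2-fold among the 8 less abundant, and the ent-kaurene genes were named after their values were seen. Alternatives covered pseudocounts, low-value limits and library scaling.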

Additional observations from a re-analysis of the deposited data

How the results depend on the processing

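No paired analysis was possible because each group has 1 library, and for the same reason no library could be left out. The 3 members at least 2-fold lower and the 2 at least 2-fold higher in LP remained under pseudocounts of 0.1 and 5 RPKM, no limit on low values, median-of-ratios scaling, upper-quartile scaling, counts scaled by library total alone, and centring on the median of all genes. With at least 10 reads required in each library, the higher count was 1, since comp16482_c0, with 1 CK read, leaves the comparison. The ratio of summed levels was 1.40 under median-of-ratios scaling and 1.25 under upper-quartile scaling, against 1.20. It fell below 1 without the most abundant gene of each library (0.922), without the genes that carry a gibberellin term (0.684), and in sums, added after the data were seen, over the 5 genes with the ACC oxidase term (0.447) or over every gene with it (0.637). These changes follow from which genes are summed. Of the 76 genes of the product-name pathway lists, 9 stood at least 2-fold higher (8.68% of all genes) and 20 lower (16.2%). The lower count became 11 with a pseudocount of 5 RPKM (3.27% of all genes) and 13 when both libraries needed 10 reads (11.8%). No member past 2-fold changed sign under any of these settings. The signs of comp5435_c0 and comp26355_c0, both near 0, changed under median-of-ratios scaling (0.17 and 0.05 on the log2 scale). That of comp5435_c0 also changed under upper-quartile scaling (0.01) and under centring on the median of all genes (0.11). CK has fewer reads, so low levels are least certain there.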

Other observations

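Genes tied by product name or GO term to the making of gibberellins, the substrates of gibberellin oxidases, also stood on both sides. The GO-term list behind the ent-kaurene genes was searched after the member values were seen. Of 7 genes named as gibberellin oxidases, 3 were at least 2-fold higher in LP (8.68% of all genes), 1 lower (16.2% of all genes) and 3 within 2-fold. The gibberellin 3-beta-dioxygenase gene comp26397_c0, which has the name of the enzyme that forms active gibberellins, had 196 RPKM in LP roots and 119.8 RPKM in CK roots, a ratio of 1.64 (1.56 to 1.72). Its relative comp25366_c0 had 4.53 RPKM in LP roots (228 reads) and 36.9 RPKM in CK roots (680 reads), 8.15-fold lower in LP (7.01 to 9.51). The 3 higher genes were read 3, 9 and 4 times in CK roots, and comp4342_c0, the highest by log2 ratio with the pseudocount, had 6.97 RPKM in LP roots and 0.67 RPKM in CK roots. A GO term for gibberellin biosynthesis stood on 15 genes, several of them named as kinases and not as enzymes of the pathway. Of the 15, 2 were at least 2-fold higher in LP (13.3%, against 8.68% of all genes), 2 lower (13.3%, against 16.2%) and 11 within 2-fold. The lower ones were comp25366_c0, given above, and a kinase gene, comp18003_c0, with 17.6 RPKM in LP roots and 36.5 RPKM in CK roots. The 2 higher ones act earlier in the pathway. The ent-kaurenoic acid hydroxylase gene comp26628_c0 had 187 RPKM in LP roots and 22.2 RPKM in CK roots (8.41-fold higher, 7.72 to 9.17), and the ent-kaurene oxidase gene comp25073_c0 had 49.5 RPKM in LP roots and 11.1 RPKM in CK roots (4.45-fold higher, 3.98 to 4.98). A second ent-kaurenoic acid hydroxylase gene, comp23425_c0, had a ratio of 1.87 (1.54 to 2.29), and the ent-kaurene synthase gene comp24742_c0 one of 0.768 (0.663 to 0.890).

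An ACC synthase activity term stood on 6 genes, 5 of them named as aminotransferases, the enzyme class to which ACC synthase is related. In LP, 1 was at least 2-fold higher (8.68% of all genes) and 0 lower (16.2% of all genes). That one, comp23271_c0, named as tyrosine aminotransferase, had 94.3 RPKM in LP roots and 37.7 RPKM in CK roots (2.50-fold, 2.35 to 2.66). The most abundant of the 6, comp14667_c0, named as aspartate aminotransferase, had 87.3 RPKM in LP roots and 83.5 RPKM in CK roots, a ratio of 1.05 (1.01 to 1.09).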
